A study of Mus musculus with 20 samples.

Results

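The genes described here move calcium out of the cytosol or let it in when stores run low. They are 10 of the 17104 named genes listed in any of the 3 deposited tables, and all 10 are listed in every table: the plasma membrane pumps Atp2b1 and Atp2b4, the endoplasmic reticulum pumps Atp2a2 and Atp2a3, the Golgi pumps Atp2c1 and Atp2c2, the store sensors Stim1 and Stim2, and the channel subunits Orai1 and Orai3. The list was chosen by function around Atp2b4, and Atp2b4 itself was selected on its values, because its level in Resist tumor cells exceeded that in both Naive and Resist-Mac cells. Its levels are therefore given without a test, and tests were made only on the 9 other genes.

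The samples were CD45- iRFP+ tumor cells sorted from bone metastases of MycCaP-Bo, 1 mouse prostate cancer line driven by Myc and labelled with iRFP and luciferase, in FVB/N mice 4 to 6 wk of age. Each of the 20 libraries pooled the cells of 3 mice, with 5 libraries per group. Naive mice received vehicle, and Resist mice received enzalutamide, an androgen receptor antagonist, at 30 mg/kg for 18 d. Resist-Mac mice received the same enzalutamide course and clodronate liposomes, which kill phagocytes, at 1 mg/mouse over its last 4 d. Naive-Mac mice received vehicle and clodronate liposomes for 4 d. Clodronate acts on the whole animal, whereas the values below are those of sorted tumor cells.

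Cytosolic calcium is kept far below the level outside the cell by ATP-driven pumps. PMCA pumps (Atp2b genes) push calcium across the plasma membrane, SERCA pumps (Atp2a genes) load the endoplasmic reticulum, and SPCA pumps (Atp2c genes) load the Golgi apparatus with calcium and manganese. When the endoplasmic reticulum is emptied, its STIM proteins sense the loss, cluster under the plasma membrane and open ORAI channels, which is store-operated calcium entry. ORAI1 and ORAI3 can form mixed channels, and a role for ORAI3 has been described in prostate cancer cells.

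RefSeq start-site windows on GRCm38.p6, running from 250 bases before to 50 bases after an annotated start, were found for 8 of the 10 genes (10 windows). Atp2a2 and Atp2c2 had no entry. The windows of the PMCA pair and of the channel pair are shown, each 5′ to 3′ on the strand of its gene, because the level of 1 gene relative to its partner is followed in both pairs below. Capitals mark the letters of 3 motifs on either strand: the GC box GGGCGG, the E-box CACGTG, which MYC proteins bind, and AGAACA, the core hexamer of androgen receptor elements. GC boxes that overlap each other run together.
Atp2b4 (chr1:133753698-133753997, minus strand): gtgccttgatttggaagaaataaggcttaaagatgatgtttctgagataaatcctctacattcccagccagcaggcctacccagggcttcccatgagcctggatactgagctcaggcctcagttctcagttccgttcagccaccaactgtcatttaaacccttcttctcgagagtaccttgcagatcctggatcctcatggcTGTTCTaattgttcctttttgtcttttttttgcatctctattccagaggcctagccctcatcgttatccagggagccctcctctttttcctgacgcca
Atp2b1 (chr10:98914392-98914691, plus strand, the first of 2 windows): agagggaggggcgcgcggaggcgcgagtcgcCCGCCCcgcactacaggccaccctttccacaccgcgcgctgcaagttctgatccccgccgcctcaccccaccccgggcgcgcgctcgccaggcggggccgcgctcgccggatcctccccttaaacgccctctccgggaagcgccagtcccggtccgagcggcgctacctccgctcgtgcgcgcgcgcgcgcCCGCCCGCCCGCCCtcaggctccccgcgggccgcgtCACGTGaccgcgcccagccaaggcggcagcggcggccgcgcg
Orai1 (chr5:123014824-123015123, plus strand): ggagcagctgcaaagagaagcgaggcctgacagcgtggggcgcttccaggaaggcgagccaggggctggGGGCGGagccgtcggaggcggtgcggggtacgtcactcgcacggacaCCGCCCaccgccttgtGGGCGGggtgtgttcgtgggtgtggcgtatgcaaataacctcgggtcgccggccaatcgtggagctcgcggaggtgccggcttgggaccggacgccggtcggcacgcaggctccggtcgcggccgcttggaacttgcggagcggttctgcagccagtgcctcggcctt
Orai3 (chr7:127769565-127769864, plus strand): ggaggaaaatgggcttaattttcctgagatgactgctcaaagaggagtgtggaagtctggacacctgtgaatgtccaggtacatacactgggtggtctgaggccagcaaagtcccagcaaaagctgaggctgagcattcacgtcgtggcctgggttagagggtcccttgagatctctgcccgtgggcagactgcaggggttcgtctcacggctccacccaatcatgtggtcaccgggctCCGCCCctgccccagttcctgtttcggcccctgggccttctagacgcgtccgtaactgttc
The Atp2b4 window had 4 CpG dinucleotides and 47.7% GC, against 54 CpG and 79.3% GC in the Atp2b1 window. It held no GC box, whereas the Atp2b1 window held 4, the Orai1 window 3 and the Orai3 window 1. GC boxes occurred in 8 of the 10 member windows and in 35.7% of all 32851 windows. Atp2b4 was the only member of the list whose window held AGAACA (on the opposite strand, as TGTTCT), which 19% of all windows hold. The E-box was found in 1 member window, that of Atp2b1, and in 7.15% of all windows. The AP-1 motif TGAGTCA was in none of the 10 and in 5.2% of all. A letter match describes the window and is not a binding site.

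Values are FPKM, fragment counts scaled for transcript length and library size, so levels of different genes can be set side by side. Atp2a2 was the most abundant of the 10 in every group, at 243 ± 26 FPKM in naive cells (SD, n = 5), and Stim1 was next, at 55.02 ± 3.33. In naive cells Atp2c1 (19.2 FPKM), Orai1 (16.5) and Atp2b1 (16.5) followed, and the Orai1 range overlapped those of Atp2c1 and Atp2b1. Then came Stim2 (12.1), Orai3 (8.002) and Atp2b4 (4.05), which did not overlap the genes next to them in rank. The highest Stim2 value (13.13) was above the lowest Orai1 value (12.68). Atp2a3 (0.672) and Atp2c2 (0.338) were near the limit of detection and overlapped. In Resist cells only Atp2a2, Stim1 and Atp2c1 had higher means than Atp2b4, at 18.1 FPKM. The Atp2b4 range there overlapped those of Atp2c1, Atp2b1, Orai1, Stim2 and Orai3. In Naive-Mac cells only Atp2a3 was lower than Atp2b4, at 0.718 and 0.736 FPKM, with overlapping ranges.

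**Figure D1:**
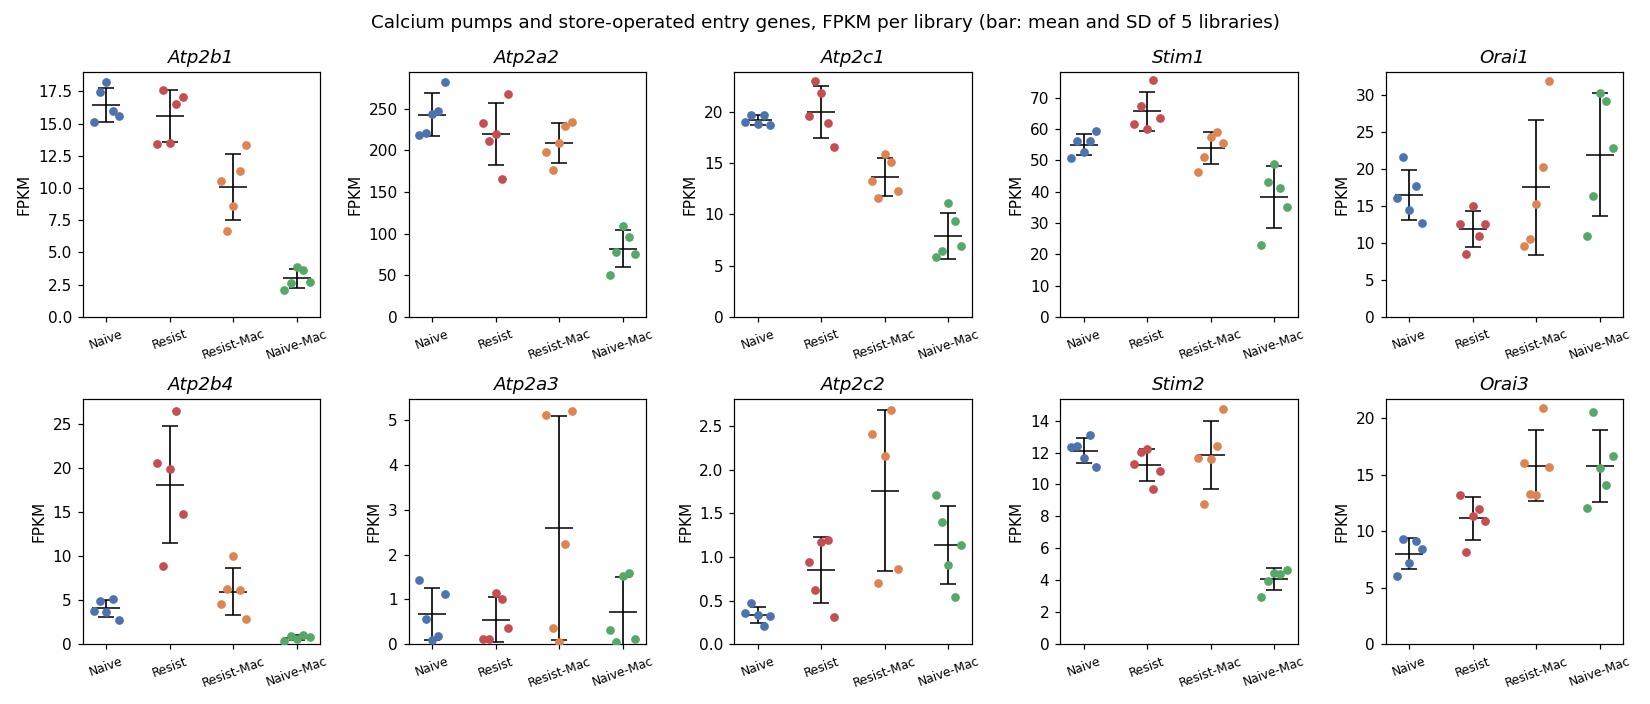
FPKM of the 10 genes (y axis, linear from 0) in each of the 20 libraries, by group (x axis); points are libraries, and bars are the mean and SD of 5 libraries. Atp2b4 lay between 8.91 and 26.53 in Resist and between 2.7 and 5.15 in Naive, while the Naive-Mac libraries were the lowest of all for Atp2b1, Atp2a2, Atp2c1 and Stim2.

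Naive and Resist were in 1 table and labelled as 1 batch, whereas Resist-Mac and Naive-Mac each had a table and a batch of their own. For comparisons that cross tables the treatment and the batch cannot be told apart: depletion in Resist vs. Resist-Mac and Naive vs. Naive-Mac, and enzalutamide in Resist-Mac vs. Naive-Mac, where both groups were depleted. In these comparisons the change of a gene followed the length of its transcript: across genes, Spearman's rho of change and length was 0.642 for Resist vs. Resist-Mac, 0.709 for Naive vs. Naive-Mac and 0.607 for Resist-Mac vs. Naive-Mac, but 0.155 for Resist vs. Naive. The transcripts of 7 of the 10 genes, all but Atp2c2, Orai1 and Orai3, are longer than the median of all genes tested (3282 to 3360 bases by comparison), and Atp2b4 has the longest transcript of the 10, at 11725 bases. Each library was therefore also corrected for length and GC content, and the main changes across tables are given as deposited and after this correction. Of the tumor markers, Krt8 averaged 107 to 317 FPKM by group, but Cdh1 and Krt18 were near 0 in all groups and Epcam was at 0.01 FPKM or not listed. Myc averaged 139 to 169 FPKM in 3 groups and 7.89 in Naive-Mac. Leukocyte transcripts varied between libraries, and the summed FPKM of 8 neutrophil markers had medians of 393 in Naive, 192 in Resist, 2180 in Resist-Mac and 3566 in Naive-Mac. Those of 10 macrophage markers were 30.8, 20.4, 194 and 248 in the same order. Most of the macrophage sum was Lyz2, with means of 38.1, 21.1, 304 and 223 FPKM. Every other macrophage marker averaged 2.37 FPKM or less in each group, and Cd163 was not listed in Resist-Mac. The medians of 9 osteoblast and stromal markers were 11.3, 23.5, 12.5 and 2.7, those of 6 endothelial markers 1.16, 2.44, 1.85 and 0.32, and those of 8 erythroid markers 106, 165, 201 and 358. In such pooled RNA, fewer cells of a type and less RNA per cell cannot be told apart.

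Of the PMCA pumps, Atp2b4, which encodes PMCA4, measured 3.79, 4.94, 3.66, 5.15 and 2.7 FPKM in the naive libraries. In Resist it measured 20.59, 8.91, 19.88, 26.53 and 14.76 FPKM, so every Resist library was above every naive library, and the second was well below the other four. The mean was 4.48-fold higher in Resist, a log2 change of 1.87 on the log2(FPKM + 1) scale, and the change was 1.80 after the length and GC correction. Resist-Mac libraries gave 4.5, 6.29, 9.98, 6.16 and 2.84 FPKM, and the groups overlapped, since the third Resist-Mac library was above the second Resist library. Resist was 3.05-fold above Resist-Mac by the means, a log2 change of 1.47, which fell to 0.72 after the correction. Naive-Mac libraries were the lowest, at 0.31 to 1.08 FPKM, about 34.6 to 118 fragments each by an estimate of depth. Naive was 5.5-fold above Naive-Mac by the means. The log2 change was 1.53 on the log2(FPKM + 1) scale and 2.36 with a pseudocount of 0.1. The change of 1.53 was not kept by the correction, which turned it to −0.15. Stromal marker sums moved with Atp2b4 in part: they were 10.6 to 15.9 FPKM in Naive and 11.3 to 33.0 in Resist, where the second library, the lowest in Atp2b4, was also the lowest in stromal (11.33) and endothelial (0.25) sums. The fifth, with the highest stromal sum, had 14.76 FPKM of Atp2b4. Of the stromal markers, Runx2 averaged 7.83 FPKM in Naive and 9.83 in Resist. Col1a1 averaged 1.84 FPKM (1.18 to 3.61) in Naive and 5.95 (0.17 to 13.52) in Resist. Col1a2 averaged 1.36 FPKM (0.94 to 2.61) in Naive and 4.33 (0.11 to 9.38) in Resist. Alpl had the lower mean in Resist, at 0.028 FPKM in Naive and 0.006 in Resist. Bglap and Sp7 were at 0 in all naive libraries and at 0.21 FPKM or less in Resist. The part of these cells in the level of Atp2b4 was not tested. These are the values Atp2b4 was chosen by, or share libraries with them, and no test was made on them.

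Atp2b1 encodes PMCA1, the pump found in nearly all cells. It measured 15.14, 17.46, 18.21, 15.96 and 15.56 FPKM in Naive and 13.41, 17.57, 13.5, 16.51 and 17.03 in Resist, and the groups overlapped. The log2 change was −0.08 ± 0.09 (SE; limma, adjusted p = 0.574). Resist-Mac libraries gave 10.52, 6.69, 8.6, 11.33 and 13.34 FPKM, all below the lowest Resist library. Here Atp2b1 was called higher in Resist, by 0.61 ± 0.16 on the log2 scale (limma, adjusted p = 0.00869), but the change fell to 0.19 with the length and GC correction (limma, adjusted p = 0.388). Leaving out Resist library 2, 4 or 5 or Resist-Mac library 2 or 3 also took it under the 1.5-fold threshold. Naive-Mac libraries measured 2.09, 2.66, 3.85, 3.61 and 2.7 FPKM, 5.52-fold below Naive by the means, and the log2 change of 2.15 ± 0.13 was the largest among the tested genes of the list (limma, adjusted p = 7.52e-09). It was 1.19 after the correction, the largest there too, and still called.

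Because Atp2b1 was at a like level in Naive and Resist while Atp2b4 was not, the make-up of the pair differed. Atp2b4 accounted for 14.8 to 24.4% of the summed PMCA FPKM in Naive and for 33.7 to 61.6% in Resist. The means were 19.6 ± 3.9% and 52.4 ± 12.2% (SD, n = 5), and the summed level averaged 20.5 FPKM in Naive and 33.7 in Resist. In Resist-Mac the share was 17.6 to 53.7%, which overlaps both the naive and the Resist range. In Naive-Mac it was 12.9 to 25.1%, close to Naive, although the summed level was only 3.72 FPKM. The mean log2 ratio of Atp2b4 to Atp2b1 was −2.03 in Naive, 0.13 in Resist, −0.83 in Resist-Mac and −1.94 in Naive-Mac. Atp2b4 chose the pair, so these shares are a description. The other 2 PMCA genes, Atp2b2 and Atp2b3, were not listed. Basigin (Bsg) and neuroplastin (Nptn), the partner proteins that PMCA pumps need to reach the cell surface, were not called in Resist vs. Naive.

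**Figure D2:**
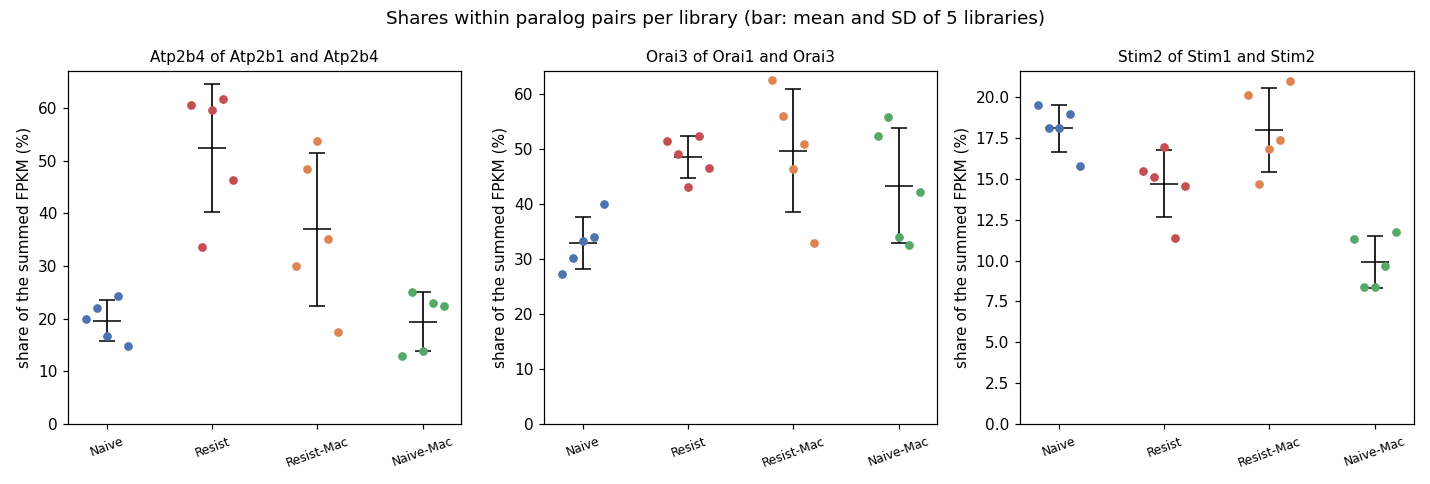
Share of the summed FPKM of a pair taken by the named gene (y axis, %) in each library, by group (x axis), for the PMCA, ORAI and STIM pairs; bars are the mean and SD of 5 libraries. The Orai3 share was 27.2 to 39.9% in Naive and 43.1 to 52.4% in Resist, and the Stim2 share averaged 9.90% in Naive-Mac against 14.7 to 18.1% in the other groups.

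Of the SERCA pumps, Atp2a2 encodes SERCA2, the housekeeping pump of the endoplasmic reticulum. It measured 219, 221, 244, 247 and 283 FPKM in Naive and 233, 211, 220, 165 and 268 FPKM in Resist, and the groups overlapped (log2 change −0.16 ± 0.11, limma, adjusted p = 0.357). Resist-Mac libraries, at 198, 176, 209, 229 and 234 FPKM, also overlapped Resist (0.06 ± 0.13, limma, adjusted p = 0.733), and the sign of this small change turned with the length and GC correction (−0.31). Naive-Mac stood apart, at 49.88, 78.11, 108.72, 96.31 and 75.34 FPKM. Atp2a2 was called higher in Naive than in Naive-Mac, by 1.60 ± 0.17 on the log2 scale (limma, adjusted p = 1.19e-06), and higher in Resist-Mac than in Naive-Mac, by 1.39 ± 0.18 (limma, adjusted p = 2.03e-05). With the correction both changes were smaller, at 0.70 and 0.85, and were still called.

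Atp2a3 encodes SERCA3, a pump of blood cells and some epithelia. It was below 1.5 FPKM in all naive and Resist libraries, under the mean of 1 FPKM needed for testing, and rested on as few as 3.7 estimated fragments in Naive. In Resist-Mac it measured 5.12, 0.36, 0.04, 2.23 and 5.21 FPKM. The highest values were in libraries 1 and 5, whose neutrophil marker sums were 8016 and 4246 FPKM, and the lowest was in library 3, with 366. Within Naive and Resist the pattern was alike: the naive libraries with the most Atp2a3 (1.42 and 1.11 FPKM) had the highest neutrophil sums (1121 and 485), and the Resist libraries with the most (1.14 and 1.01) had 413 and 511. Naive-Mac library 1 did not follow it, with a sum of 4636 and 0.32 FPKM of Atp2a3. It reached the mean needed for testing through the Resist-Mac libraries alone, so no test of its level is given. Its log2 ratio to Atp2a2 did not pass the test in any of the 4 comparisons (exact permutation test, adjusted p from 0.216 to 0.992). The part of leukocyte RNA in the level of Atp2a3 was not tested.

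**Figure D3:**
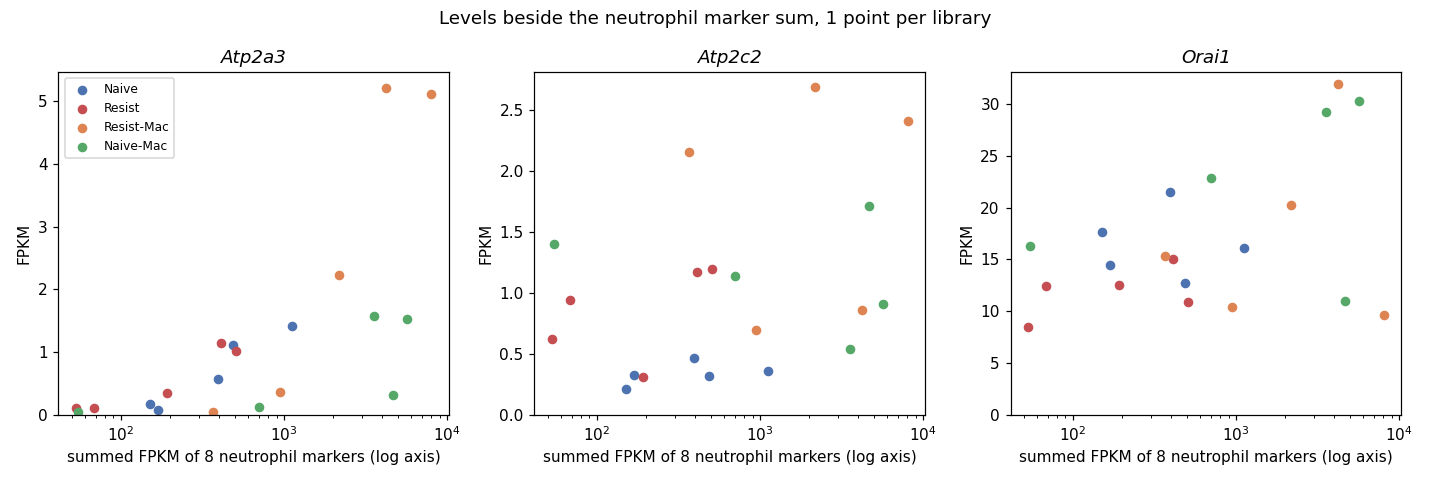
FPKM of Atp2a3, Atp2c2 and Orai1 (y axis, linear from 0) against the summed FPKM of 8 neutrophil markers (x axis, log scale), 1 point per library, colored by group. The 2 Resist-Mac libraries with over 5 FPKM of Atp2a3 had sums of 4246 and 8016, while for Orai1 the library with the highest sum, at 8016, had 9.63 FPKM.

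Of the SPCA pumps, Atp2c1 encodes SPCA1, the common Golgi pump. Naive libraries lay in a narrow band, at 19.06, 19.71, 18.86, 19.75 and 18.78 FPKM, and Resist libraries at 19.58, 23.07, 21.92, 18.91 and 16.63 FPKM overlapped them (log2 change 0.05 ± 0.08, limma, adjusted p = 0.721). Resist-Mac libraries, at 13.28, 11.6, 15.95, 15.13 and 12.28 FPKM, were all below Resist. The difference of 0.52 ± 0.12 passed the p threshold (limma, adjusted p = 0.00337) and not the fold threshold, and with the length and GC correction it was 0.26 (limma, adjusted p = 0.0978). Naive-Mac libraries measured 5.86, 6.39, 11.16, 9.37 and 6.89 FPKM, and Naive was called higher by 1.21 ± 0.15 (limma, adjusted p = 4.73e-06), or 0.63 after the correction, where it was still called. The 0.74 ± 0.17 by which Resist-Mac was called above Naive-Mac (limma, adjusted p = 0.0021) fell under the fold threshold with the length and GC correction (0.42), median-ratio scaling (0.36) and quantile normalization (0.20). Atp2c1 shares 1837 of its 9694 exonic bases with Aste1 on the opposite strand, and reads from those bases could belong to either gene.

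Atp2c2, the SPCA2 pump of secretory epithelia, was low throughout. It measured 0.36, 0.47, 0.33, 0.21 and 0.32 FPKM in Naive and 0.94, 0.62, 1.17, 1.2 and 0.31 FPKM in Resist. Only the fifth Resist library was within the naive range. The log2 ratio of Atp2c2 to Atp2c1 was higher in Resist than in Naive by 0.97 (exact permutation test on both sides, p = 0.0159, or 0.0363 when adjusted for 16 ratio tests), with 7.1 to 42.3 estimated Atp2c2 fragments per library behind it. The corrected difference was 0.91, with an adjusted p of 0.0635 (exact permutation test), so the call was lost. It was also lost in 9 of 10 settings with 1 library left out, all but that without Naive library 2 (exact permutation test, adjusted p from 0.0423 to 0.0726). Resist-Mac libraries gave 2.41, 0.7, 2.16, 2.69 and 0.86 FPKM, and Naive-Mac libraries 0.54 to 1.71 FPKM. The ratio was lower in Resist than in Resist-Mac by 1.47 (exact permutation test, adjusted p = 0.0363), a call that the correction also took away (adjusted p = 0.0508, exact permutation test). With 1 library left out, the log2 difference, Resist minus Resist-Mac, lay between −1.67 and −1.26, and the adjusted p passed the threshold in 1 of 10 settings, without Resist-Mac replicate 2 (exact permutation test, adjusted p from 0.0363 to 0.0726). The ratio was lower in Naive than in Naive-Mac by 2.75 (exact permutation test, p = 0.00794, the smallest that 5 against 5 can give, adjusted p = 0.0317), where Atp2c1 was also lower in Naive-Mac, and the corrected difference was −2.29 with the same adjusted p. Leaving out Naive library 1, 3 or 4 took the adjusted p to 0.0508 (exact permutation test).

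Of the store sensors, Stim1 encodes the main sensor of the endoplasmic reticulum store. Naive libraries measured 50.91, 56.17, 52.53, 56.16 and 59.33 FPKM. Resist libraries measured 61.54, 67.37, 60.09, 75.67 and 63.71 FPKM, all above the highest naive library, if only just for the third. The change was small, 1.19-fold by the means and 0.25 ± 0.07 on the log2 scale, and passed the p threshold (limma, adjusted p = 0.0323) without reaching 1.5-fold. Of the 7 tested genes of the list, Stim1 was the 1 whose naive and Resist values did not overlap, and 12.8% of all tested genes did not overlap in this comparison. Resist-Mac libraries, at 46.29, 51.12, 57.46, 59.03 and 55.6 FPKM, were all below Resist (0.28 ± 0.09, limma, adjusted p = 0.0296), again within 1.5-fold, and the corrected difference was 0.04 (limma, adjusted p = 0.766). Naive-Mac libraries lay at 22.95 to 48.87 FPKM, below Naive by 0.55 ± 0.16 (limma, adjusted p = 0.00639). That difference was called with quantile normalization (0.68) or without Naive-Mac library 2, 3 or 4 (0.59 to 0.65), and the length and GC correction turned it to −0.13.

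Stim2 encodes the sensor that responds to smaller losses from the store. It measured 11.11 to 13.13 FPKM in Naive, 9.74 to 12.24 in Resist and 8.79 to 14.76 in Resist-Mac, with no call among them (log2 change −0.11 ± 0.08 in Resist vs. Naive, limma, adjusted p = 0.348). Naive-Mac libraries gave 2.93, 3.94, 4.48, 4.4 and 4.67 FPKM, 2.97-fold below Naive. Stim2 was called higher in Naive by 1.38 ± 0.12 (limma, adjusted p = 1.61e-07) and higher in Resist-Mac by 1.33 ± 0.16 (limma, adjusted p = 1.22e-05), and both calls held after the correction, at 0.74 and 0.96. Relative to Stim1, Stim2 was lower in Resist than in Naive: the log2 ratio differed by −0.37 (exact permutation test, p = 0.0159, adjusted p = 0.0363), with overlapping ranges, and the call was lost with the correction (adjusted p = 0.0907, exact permutation test) and in 9 of 10 settings with 1 library left out, all but that without Naive library 5 (exact permutation test, adjusted p from 0.0423 to 0.0726). The ratio was higher in Naive than in Naive-Mac by 1.00 and higher in Resist-Mac than in Naive-Mac by 0.98, without overlap (exact permutation test, adjusted p = 0.0317 for each), and by 0.99 and 1.05 after the correction. Leaving out Naive library 1, 3 or 4 took the adjusted p of the first to 0.0508 (exact permutation test), and the second passed in all 10 such settings.

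The channel subunits Orai1 and Orai3 had mean changes of opposite sign in Resist cells. Orai1, the main pore subunit of store-operated channels, measured 16.11, 21.54, 14.42, 17.65 and 12.68 FPKM in Naive and 12.48, 8.46, 15.02, 10.87 and 12.5 FPKM in Resist. Only the third Resist library was inside the naive range, and the change of −0.44 ± 0.15 did not pass the threshold (limma, adjusted p = 0.0596). Orai3 measured 6.03, 9.28, 7.18, 9.09 and 8.43 FPKM in Naive and 13.2, 8.16, 11.37, 11.97 and 10.91 FPKM in Resist, where the second library alone fell into the naive range. Its change of 0.43 ± 0.13 passed the p threshold (limma, adjusted p = 0.041) and not the fold threshold.

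The ratio of the 2 subunits separated the groups. The log2 ratio of Orai3 to Orai1 lay between −1.40 and −0.58 in Naive and between −0.40 and 0.14 in Resist, a difference of 0.94 (exact permutation test on both sides, p = 0.00794, the smallest that 5 against 5 can give, or 0.0317 when adjusted for 16 ratio tests). It was 0.97 after the length and GC correction, with the same adjusted p. Orai3 made up 32.9 ± 4.8% of the summed ORAI FPKM in Naive and 48.5 ± 3.8% in Resist (SD, n = 5), while the sum itself was alike, at 24.5 ± 4.2 and 23.0 ± 3.9 FPKM. The neutrophil marker sums of the groups overlapped, at 151 to 1121 FPKM in Naive and 53.3 to 511 in Resist, and their part in the ratio was not tested. With 1 library left out, the difference stayed between 0.85 and 1.05, and its adjusted p was 0.0423 to 0.0635, passing in 2 of 10 settings (without Naive library 2 or 5). There 4 against 5 cannot give a raw p below 0.0159 (exact permutation test).

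Across tables the channel genes spread widely. Orai1 measured 9.63, 10.45, 15.29, 20.23 and 31.93 FPKM in Resist-Mac and 10.96, 16.33, 30.3, 29.2 and 22.83 in Naive-Mac, and it was called in no comparison (limma, adjusted p from 0.0596 to 0.365), although median-ratio scaling and quantile normalization called it lower in Naive and in Resist-Mac than in Naive-Mac, by 0.60 to 0.75. The means of Orai3 were highest in the depleted groups, at 16.02, 13.26, 13.18, 20.95 and 15.64 FPKM in Resist-Mac and 12.03, 20.56, 15.63, 14.05 and 16.64 in Naive-Mac. It was lower in Resist than in Resist-Mac by 0.47 ± 0.15, which passed the p threshold (limma, adjusted p = 0.0211) and not the fold threshold, and the corrected change was −0.27 (limma, adjusted p = 0.172). It was called lower in Naive than in Naive-Mac, by 0.89 ± 0.15 (limma, adjusted p = 9.41e-05), and the change of −0.45 after the length and GC correction was under the fold threshold. The ratio of Orai3 to Orai1 did not pass the test between Resist and Resist-Mac (difference −0.06, exact permutation test, adjusted p = 0.971) or between Naive and Naive-Mac (−0.63, exact permutation test, adjusted p = 0.155). The share of Orai3 in Resist-Mac ran from 32.9 to 62.5%, wider than in Naive or Resist.

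The counts of the list are given beside those of all genes. Resist vs. Naive gave calls for 6.35% of 10119 genes (5.25% with Resist higher and 1.11% with Resist lower, or 381 and 167 genes with quantile normalization against 531 and 112 without), and 0 of the 7 tested genes of the list were called, with 3 at an unadjusted limma p under 0.05 (34.5% of all genes), 2 at an adjusted p under 0.05 at any fold (18.9% of all genes) and 0 called by a noise-distribution method after NOISeq. At this background 0 of 7 says nothing particular about the list. The noise-distribution count has no share over all genes beside it. The median log2 change of those 7 was −0.08, against 0.03 for all genes. In Resist vs. Resist-Mac the 9 tested genes gave 1 call, against 21.7% of all genes (9.71% higher and 12% lower in Resist, or 981 and 808 genes with quantile normalization against 976 and 1205). Atp2b1, Atp2c1 and Stim1 did not overlap, and neither did 29.7% of all genes. Atp2a3 and Atp2c2 entered this comparison through their Resist-Mac libraries.

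In Naive-Mac cells the pumps Atp2b1, Atp2a2 and Atp2c1 and the sensor Stim2 were called lower than in both Naive and Resist-Mac. In Naive vs. Naive-Mac 5 of the 7 tested genes were called, 4 of them higher in Naive (Atp2b1, Atp2a2, Atp2c1 and Stim2) and 1 lower (Orai3). Of all genes, 59.7% were called, 37.5% higher and 22.1% lower, and 66% did not overlap, the background against which 5 of 7 is read. With median-ratio scaling the split of calls over all genes was 2969 higher and 2974 lower, against 3691 and 2177, and the median change of all genes moved from 0.23 to −0.02. In Resist-Mac vs. Naive-Mac 4 of 9 were called, all higher in Resist-Mac (Atp2b1, Atp2a2, Stim2 and Atp2c1), and the same 4 did not overlap. Atp2a3 counts among the 9 through its Resist-Mac libraries alone. Here 46.2% of all genes were called, 37.2% higher and 9% lower, and 47.8% did not overlap. With median-ratio scaling the calls were 2307 higher and 2144 lower, against 3631 and 878, and the median moved from 0.34 to −0.01.

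**Figure D4:**
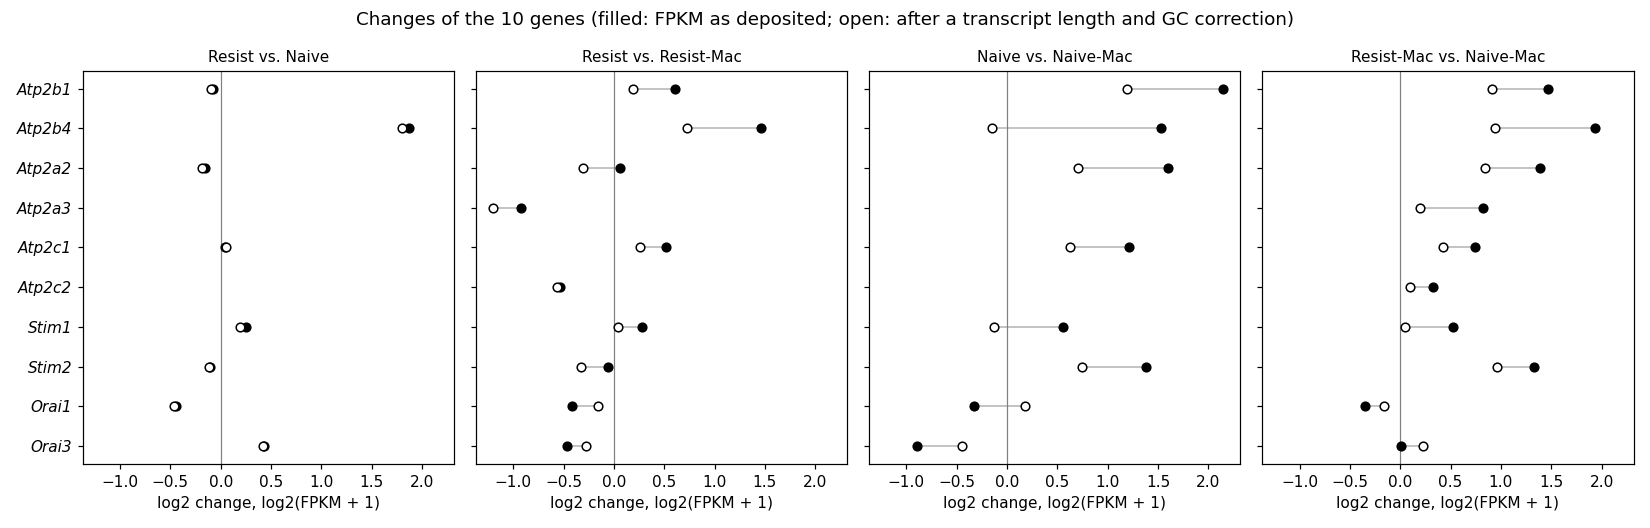
Log2 change of each gene on the log2(FPKM + 1) scale (x axis) in the 4 comparisons; filled points are from FPKM as deposited and open points after the transcript length and GC correction, and genes under the mean of 1 FPKM are left out. The points nearly coincide in Resist vs. Naive, whereas Atp2b4 in Naive vs. Naive-Mac goes from 1.53 to −0.15.

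The change that went with depletion was then compared between the naive and the resistant setting. The contrast was Resist vs. Resist-Mac less Naive vs. Naive-Mac, and 4 of the 9 genes tested were called, all below 0: Atp2a2 (−1.54 ± 0.22), Atp2b1 (−1.54 ± 0.21), Stim2 (−1.44 ± 0.17) and Atp2c1 (−0.69 ± 0.19; limma, adjusted p = 0.00441 or less for each). Atp2a3 and Atp2c2 reached the mean needed for this test through depleted libraries. After the correction Atp2a2, Atp2b1 and Stim2 were at −1.05, −1.03 and −1.09 and still called. The call for Atp2c1 was lost under the correction (−0.39), median-ratio scaling (−0.37) and quantile normalization (−0.19), and the latter 2 scalings called Orai3 above 0, at 0.76 and 0.73. Of all genes, 40.7% were called and 32.5% were below 0, with calls of 801 above and 3214 below that became 1926 and 2141 under median-ratio scaling. The contrast for Atp2b4 was −0.07 and took either sign, depending on the scaling and the library left out. It was −0.74 with a pseudocount of 0.1 in place of 1, since Atp2b4 was at 0.31 to 1.08 FPKM in Naive-Mac. All 3 batches enter this contrast, so its calls cannot be told apart from batch.

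A wider list of 94 calcium-handling genes, 87 of them listed, set the 10 in context. In Resist vs. Naive 54 were tested and 3 called, a share close to the 6.35% of all genes, so the count is no result about the wider list. Cracr2b, which encodes an EF-hand protein related to a regulator of ORAI1, rose from 1.76 FPKM (1.15 to 2.07) to 5.08 (3.64 to 7.71), a log2 change of 1.11 ± 0.17 (limma, adjusted p = 0.00125). Rcn1, a calcium-binding protein of the endoplasmic reticulum lumen, rose from 29.8 FPKM (29.4 to 31.2) to 66.2 (54.0 to 90.8), by 1.1 ± 0.12 (limma, adjusted p = 0.000208). Nfatc1, a transcription factor that calcineurin activates when cytosolic calcium rises, fell from 12.5 FPKM (11.1 to 13.8) to 7.41 (6.71 to 8.67), a log2 change of −0.68 ± 0.09 (limma, adjusted p = 0.000422).

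Other genes of the wider list passed the p threshold with changes within 1.5-fold. Among them, Saraf, which slows store-operated entry, was 0.34 higher in Resist on the log2 scale, and S100a1, a regulator of SERCA pumps in muscle, was 0.49 higher. Trpm4, a calcium-activated cation channel, Mcur1, a regulator of the mitochondrial uniporter, and Nucb1, a calcium-binding protein of the Golgi, were 0.53, 0.45 and 0.35 higher. The mitochondrial genes Vdac1 and Letm1 were 0.28 and 0.21 lower. Of these named genes only S100a1 was called after the length and GC correction, at 0.63 higher in Resist (limma, adjusted p = 0.00221). The 8 tested genes of endoplasmic reticulum release and IP3 production had no call, with a median change of 0.09. The third channel gene, Orai2, averaged 0.274 FPKM in Naive and 0.868 in Resist and was under the level needed for testing.

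**Figure D5:**
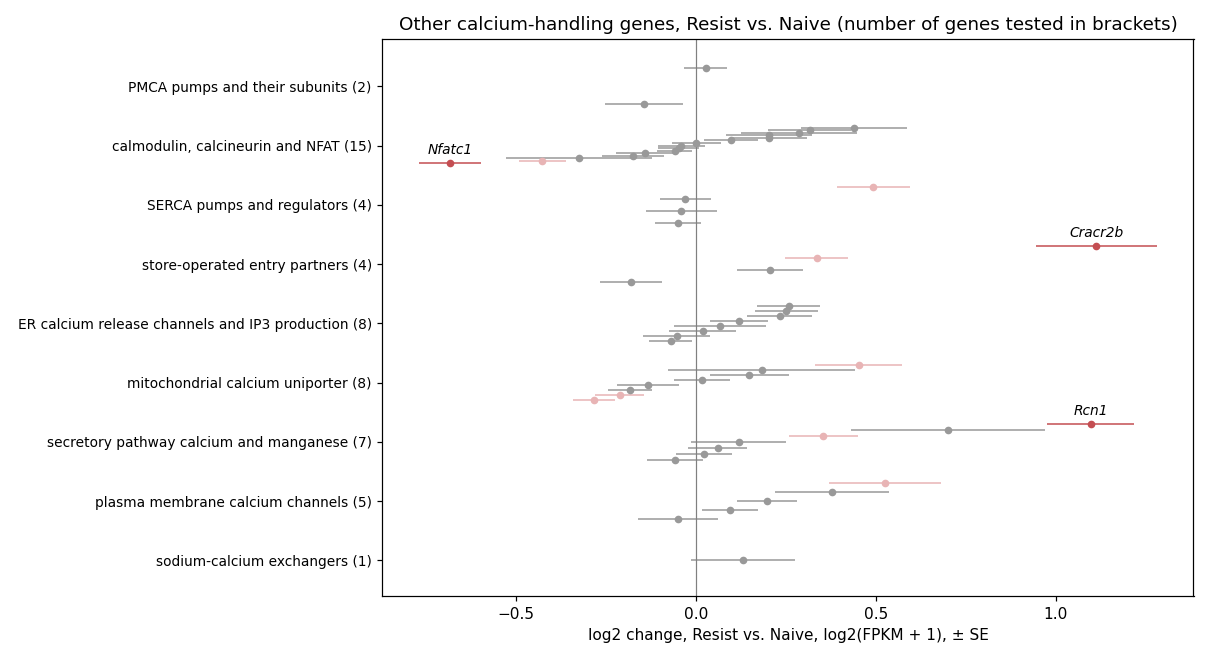
Log2 change in Resist vs. Naive on the log2(FPKM + 1) scale with SE (x axis) for the 54 tested genes of the wider list, by functional group (y axis, number tested in brackets); dark red points were called, pale red points passed the adjusted p threshold with changes within 1.5-fold, and grey points did not pass. Cracr2b and Rcn1 lie above 1 and Nfatc1 at −0.68.

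Across tables, calls of the wider list came at shares near those of all genes. Resist vs. Resist-Mac gave 10 calls among 56, against 21.7% of all genes, with 7 genes higher in Resist (Itpr1, Itpr3, Plcb4, Plcg1, Piezo1, Trpm7 and Slc39a14) and 3 lower, Smdt1 and S100a1 among them. The IP3 receptors Itpr1 and Itpr3, which release calcium from the store, were higher by 0.94 ± 0.13 and 0.96 ± 0.15 (limma, adjusted p = 0.000216 and 0.000388), but by 0.26 and 0.28 after the length and GC correction, where neither was called. In Naive vs. Naive-Mac 30 of 53 were called, against 59.7% of all genes, 24 higher in Naive and 6 lower, with changes of 2.70 for Itpr1 and 2.89 for Itpr3 that were 1.08 and 1.11 after the correction. In Resist-Mac vs. Naive-Mac 27 of 54 were called, against 46.2% of all genes, 25 higher in Resist-Mac. Cracr2b, Rcn1 and Nfatc1 were among the 25. Cracr2b and Rcn1 were higher by 0.69 and 1.44, or 0.91 and 1.68 after the correction. Nfatc1, which was lower in Resist than in Naive, averaged 5.33 FPKM in Resist-Mac and 2.14 in Naive-Mac. Its change was 0.44 after the correction, where it was not called. With the length and GC correction the calls in Resist vs. Resist-Mac went from 10 to 4.

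The 5 genes most like Atp2b4 over the 10 naive and Resist libraries, among 10118 others, were Ablim1, Btbd2, Dnal1, Mtmr4 and Il1r1, each with Pearson's r of 0.98 on the log2(FPKM + 1) scale. Ablim1, an actin-binding protein, averaged 0.894 FPKM in Naive and 4.15 in Resist, and Il1r1, the interleukin-1 receptor, 5.64 and 10.2. Within the list Orai3 (r = 0.85) and Stim1 (r = 0.74) were the most like it, and Atp2a2 (r = −0.52) and Stim2 (r = −0.51) the least. The 10 libraries come from 2 groups that differ in Atp2b4, so r includes that difference and carries no test.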

How the data were processed

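Sorted tumor cells of 4 groups with 5 libraries each were profiled by paired-end RNA-seq of 150 bases. Per the labels, the authors aligned reads with Bowtie2 to mm9. The counting tool, annotation and strandedness are not given in the sources used here. The authors deposited FPKM for Resist-Mac and Naive-Mac and log2(FPKM + 1) for Naive and Resist, which was turned back into FPKM; 100% of 174850 values then had 2 decimals within 0.0001. FPKM scales each library by its own total, and no scaling between the tables is stated. Unnamed gene models (752) were removed. Depth was estimated from genes with 1 annotated transcript of 500 to 1500 bases, 10 to 60 genes per library. It was the inverse of their median FPKM times length in kb, over low values within a fixed window. This gave 8820000 to 12480000 fragments per library, which limits genes below 1 FPKM. The window bounds the estimate, so depth and the fragment numbers built on it are rough. Transcript lengths came from GENCODE M21 on GRCm38, not the build of the tables, and lengths matched 97.6% or more of genes.

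Testing used limma 3.58.1 (R 4.3.3, trended prior variance) on log2(FPKM + 1) over the whole table, for genes whose mean over the compared libraries reached 1 FPKM. A call required a p under 0.05 after Benjamini-Hochberg adjustment together with a change of more than 1.5-fold. The study's methods name NOISeq, and a noise-distribution probability over 0.8, computed after it, was an alternative. Ratios of paralogs (FPKM + 0.1) were tested by exact permutation on both sides (scipy 1.17.1), adjusted over 16. Alternatives were the pseudocount, the filter, median-ratio and quantile scaling, a spline correction for length and GC, the replicate block, the prior, the fold threshold, 1 fit for all groups, and leaving out each library. The limma step was tested on simulated data. Named were all 10 genes, the called genes of the wider list in Resist vs. Naive, and the 5 most like Atp2b4 by Pearson's r; genes called across tables, near-threshold genes and Orai2 were named after their values were seen, and some genes of the wider list are not reported here. The genes and lists were chosen with earlier results of these data known. Each library is a pool of 3 mice, so p-values measure the spread between pools. Column headers of Resist-Mac and Naive-Mac hold 4-digit codes of unstated meaning, which Resist-Mac libraries 2 and 3 (r = 0.988), Resist-Mac libraries 4 and 5 (r = 0.984) and Naive-Mac libraries 1 and 4 (r = 0.982) share. The 2 Resist-Mac pairs were the most alike of their group. Whether pools with 1 code are independent is not given in the sources used here, and averaging them was an alternative. Same-numbered libraries did not deviate together in Resist vs. Naive (r from -0.16 to -0.03), and numbers were not used as pairs.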

Additional observations from a re-analysis of the deposited data

Results flagged for a closer look

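The depletion contrast differed between the resistant and the naive setting for 4 genes, by a test of the difference itself in limma. Resist vs. Resist-Mac less Naive vs. Naive-Mac was -1.54 for Atp2a2, -1.54 for Atp2b1, -1.44 for Stim2 and -0.69 for Atp2c1 on the log2(FPKM + 1) scale. In all 4 the change with depletion was larger in naive cells, where Naive-Mac levels were the lowest of any group. After the length and GC correction Atp2a2, Atp2b1 and Stim2 were still called, and Atp2c1 was not, at -0.39. The 3 tables enter the contrast, so batch and setting cannot be told apart. In 60 sets of 5 libraries (10 genes and 5 ratios in 4 groups) no library stood out by Dixon's test, where chance alone gives about 3.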

How the results depend on the processing

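Of the counts of called genes, those of the 9 genes other than Atp2b4 in Resist vs. Naive stayed at 0 under all alternatives. In Resist vs. Resist-Mac the 1 call became 0 with quantile normalization, the length and GC correction, a fold change over 2 and the noise-distribution probability, and 0 to 1 with 1 library left out. The noise-distribution probability gave 1 in Resist-Mac vs. Naive-Mac. The wider list had 1 call by it in Resist vs. Naive, then 5 in Resist vs. Resist-Mac and 9 in Resist-Mac vs. Naive-Mac. A fold change over 2 gave 0, 18 and 14 wider genes in Resist vs. Resist-Mac, Naive vs. Naive-Mac and Resist-Mac vs. Naive-Mac, the correction gave 4 in Resist vs. Resist-Mac, and a mean of at least 5 FPKM gave 17 in Resist-Mac vs. Naive-Mac. Over all genes a fold change over 2 left 219, 481, 3659, 2335 and 1929 calls, the correction left 907 in Resist vs. Resist-Mac, and a mean of at least 5 FPKM left 392 in Resist vs. Naive.

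Signs turned for these changes. With the correction, Naive vs. Naive-Mac was -0.15 for Atp2b4, -0.13 for Stim1 and 0.18 for Orai1, Resist vs. Resist-Mac was -0.31 for Atp2a2, and the difference of depletion effects was 0.81 for Atp2b4 and 0.13 for Stim1. With quantile normalization, Resist vs. Naive was -0.001275 for Atp2c1, Resist-Mac vs. Naive-Mac was -0.40 for Atp2c2 and -0.41 for Orai3, and the difference was 0.66 for Atp2b4 and 0.098 for Orai1. With median-ratio scaling, Resist-Mac vs. Naive-Mac was -0.39 for Orai3, and the difference was 0.087 for Atp2b4, 0.076 for Stim1 and 0.25 for Orai1. The cause was not tested, except that a correction for length changes long genes by construction.

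With 1 library left out, sign changes were found for Atp2c1 in Resist vs. Naive (-0.0040 to 0.11), Atp2a2 (-0.017 to 0.16) and Stim2 (-0.15 to 0.018) in Resist vs. Resist-Mac, Orai3 in Resist-Mac vs. Naive-Mac (-0.097 to 0.099), and, for the difference, Orai1 (-0.26 to 0.15), Atp2b4 (-0.26 to 0.15) and Atp2c2 (-0.039 to 0.24).

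Of the ratios, Atp2a3/Atp2a2 with a pseudocount of 1 was 0.054 in Resist vs. Naive and passed the test in Naive vs. Naive-Mac, at -1.60. With the correction Atp2c2/Atp2c1 (0.91 for Resist vs. Naive, -1.25 for Resist vs. Resist-Mac) and Stim2/Stim1 (-0.32 in Resist vs. Naive) lost their calls. With 1 library left out, differences in Resist vs. Naive ran from -0.50 to 0.31 for Atp2a3/Atp2a2, 0.81 to 1.18 for Atp2c2/Atp2c1, -0.43 to -0.26 for Stim2/Stim1 and 0.85 to 1.05 for Orai3/Orai1. In Naive vs. Naive-Mac they ran from -3.04 to -2.50 for Atp2c2/Atp2c1 and 0.93 to 1.07 for Stim2/Stim1, in Resist vs. Resist-Mac from -1.67 to -1.26 for Atp2c2/Atp2c1 and -0.31 to 0.13 for Orai3/Orai1, and in Resist-Mac vs. Naive-Mac from -0.53 to 0.79 for Atp2a3/Atp2a2.

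Adding the replicate number as a block gave 0, 1, 5 and 4 calls among the tested genes other than Atp2b4 for Resist vs. Naive, Resist vs. Resist-Mac, Naive vs. Naive-Mac and Resist-Mac vs. Naive-Mac, and no call changed. The libraries share only a number: 0, 1, 0 and 2 of the 5 pairs correlated best with their own number in these comparisons.

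After the data were seen, libraries with a shared header code (Resist-Mac 2 and 3, Resist-Mac 4 and 5, Naive-Mac 1 and 4) were averaged, which leaves 3 Resist-Mac and 4 Naive-Mac values. The counts of called genes stayed at 1, 5 and 4 in the comparisons across tables and 4 for the difference. Signs turned for Orai3 in Resist-Mac vs. Naive-Mac (-0.050), Orai1 in the difference (0.065) and Atp2a3/Atp2a2 in Resist-Mac vs. Naive-Mac (0.55). Ratio calls lost with these fewer values were Atp2c2/Atp2c1 in Resist vs. Resist-Mac (-1.57) and Naive vs. Naive-Mac (-2.77) and Stim2/Stim1 in Naive vs. Naive-Mac (1.02) and Resist-Mac vs. Naive-Mac (1.04), and the adjusted p of Orai3/Orai1 in Resist vs. Naive, adjusted with them, became 0.0508 (exact permutation test).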
